A study of Homo sapiens with 6 samples.

Results

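The genes described here encode the proteins of the small (40S) ribosomal subunit. They were chosen by name alone: RPSA, or RPS followed by a number and an optional A, X or L. This leaves out the RPS6 kinases and the many pseudogenes. The rule found 32 genes of the 32917 in the expression table, 26 of 42634 peaks in the authors' peak list and 16 of 19983 peaks in their differential table. All cells were Kasumi-1, an established acute myeloblastic leukaemia line labelled WT. Every library came from cells given 100 uM CoCl2, a hypoxia mimic, together with 10 nM echinomycin, which blocks DNA binding by HIF-1, for 24 hours. N6-methyladenosine (m6A) was mapped by pulling down fragmented poly(A) RNA with an antibody (IP, 3 libraries) and sequencing it beside the RNA before pulldown (input, 3 libraries). The labels give 3 biological replicates. The comparison with CoCl2 alone was made by the authors, and libraries of that condition were not analysed here. FPKM values do not show how deeply a library was sequenced. Myeloid and progenitor markers of the line were present in input. MPO, the granule peroxidase, was at 56.2 FPKM, KIT at 40.4, CD34 at 14.8, CD33 at 1.48, and RUNX1 and RUNX1T1 at 4.09 and 4.21 FPKM, while CD3E and ALB lay below 1 FPKM.

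The small subunit binds messenger RNA and reads its codons. Its proteins lie in the head or in the body of the particle, around a core of ribosomal RNA. Their messengers are short, very abundant and usually begin with a C followed by further pyrimidines, the 5' terminal oligopyrimidine (TOP) tract, through which mTOR and LARP1 control their translation. The blood system is sensitive to their dose: inherited loss of a copy of RPS19 and several others causes Diamond-Blackfan anaemia, and loss of RPS14 contributes to the anaemia of the 5q- syndrome. m6A is placed on messengers mostly in long exons and near stop codons.

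The first bases of the messengers are the sequence feature these genes are best known for, so the starts of 8 of the genes with a peak and of RPS28, whose only compared peak missed the threshold, are shown. The sequences are RefSeq's, on build GRCh38.p14, matched by symbol. Each runs 5' to 3' on the gene's strand from 10 bases before the start to 20 bases from it, and capitals mark the unbroken run of C and T from the first transcribed base.
RPS6 (chr9:19380217-19380246, minus strand): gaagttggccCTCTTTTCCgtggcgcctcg
RPS24 (chr10:78033853-78033882, plus strand): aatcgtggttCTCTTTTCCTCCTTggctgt
RPS18 (chr6:33272065-33272094, plus strand): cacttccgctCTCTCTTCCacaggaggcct
RPS27 (chr1:153990752-153990781, plus strand): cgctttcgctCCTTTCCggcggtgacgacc
RPS14 (chr5:150449720-150449749, minus strand): ccctcccactCTCTCTTTCCggtgtggagt
RPS10 (chr6:34426050-34426079, minus strand): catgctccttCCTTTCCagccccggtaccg
RPS29 (chr14:49598691-49598720, minus strand): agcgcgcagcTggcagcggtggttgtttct
RPS28 (chr19:8321486-8321515, plus strand): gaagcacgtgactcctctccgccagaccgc
RPS27L (chr15:63157458-63157487, minus strand): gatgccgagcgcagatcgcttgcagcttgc

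RefSeq's table held 28 starts for 25 of the genes. RPS2, RPS15A and RPS20 were among those without one. A run of at least 5 pyrimidines from the first base was present at 18 of the 28 starts (64.3%), against 5.17% of all 35116 starts in that table. The longest run, 14 bases, was that of RPS24. The letters CTTT lay within 5 bases before to 10 bases from the start, on the gene's strand, at 17 of 28 starts, against 6.71% of all starts, and they overlap the run just described. RPS29, RPS28, RPS27L, RPS4X, RPS26, RPS15 and RPS7 lacked such a run at the RefSeq start, and the other 18 of the 25 genes had one. GGAC, the core of the m6A consensus, was present in the first 50 transcribed bases of 4 of 28 starts, against 18.9% of all starts, on the gene's strand. A match of letters is a description and does not mark a methylated site.

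Nearly all of these genes were among the most abundant messengers of the treated cells. All 32 reached a mean input level of 1 in FPKM (fragments scaled by gene length and library total), 30 reached 100 FPKM, and 26 were among the 100 genes of highest mean. Levels of different genes are set beside each other on that scale, but the FPKM estimator is not given, so comparisons between genes are approximate. The genes together held 8.68%, 8.55% and 9.07% of all FPKM in the 3 input libraries (8.77% ± 0.274, SD, n = 3). Their median level was 419 FPKM, close to the 426 FPKM of the 50 large subunit (RPL) genes at or above 1 FPKM and far above the 5.36 FPKM of all genes at or above 1 FPKM.

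RPS18, a head protein at the interface of the subunits, was the highest. It measured 2177, 2116 and 2320 FPKM in input libraries 1, 2 and 3. RPS12, part of the beak of the head, measured 1795, 1780 and 1963 FPKM, and its highest library lay below the lowest of RPS18. RPS27, a zinc finger protein, was at 975 ± 19.3 FPKM (SD, n = 3) and RPS3A, a platform protein, at 902 ± 29.0 FPKM (SD, n = 3).

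At the other end stood RPS27L, the p53-inducible paralog of RPS27. RPS27L measured 4.03, 4.31 and 4.15 FPKM, and the mean of RPS27 was 234 times as high. RPS29, a zinc-binding head protein, measured 43.4, 45.9 and 49.6 FPKM. RPS28, a head protein near the exit of the mRNA, measured 125, 129 and 133 FPKM, RPS7 in the body averaged 146 ± 3.64 FPKM (SD, n = 3) and RPS15A, also in the body, 150 ± 6.0 FPKM (SD, n = 3). Libraries differed little for these genes: RPS29 and RPS28 were each separate from their neighbours in all 3 libraries, whereas RPS7 overlapped RPS15A.

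Across the whole set, 19 of 31 neighbouring pairs in the order of levels had ranges that did not overlap. RPS24 and RPS10 could not be ordered, with means of 500.2 and 499.8 FPKM. The spread between libraries was small, with a median coefficient of variation of 3.75%, against 3.35% for all genes of 100 FPKM or more. Library 3 gave the highest value for 26 of the 32 genes. It did so for 61.8% of all genes of 100 FPKM or more and for 26.6% of all genes of 1 FPKM or more. RPS2, a protein of the mRNA entry channel, varied least, at 638 ± 1.94 FPKM (SD, n = 3).

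RPS10, a head protein next to the mRNA entry, varied most. It measured 445, 478 and 576 FPKM in libraries 1, 2 and 3. The readthrough gene RPS10-NUDT3, which shares exons with it, ran the other way, at 43.1, 26.8 and 8.42 FPKM. The libraries thus ordered these overlapping genes oppositely, and how reads were divided between them was not tested.

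**Figure D1:**
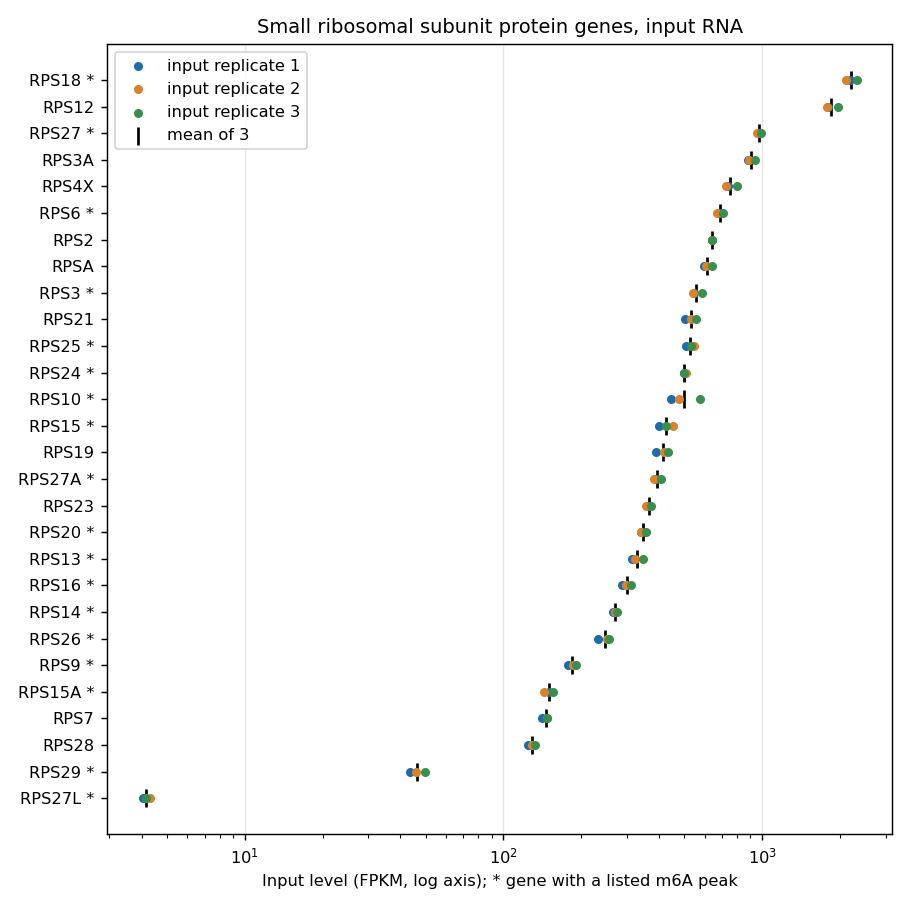
Input level of each small subunit gene reported by name, in FPKM on a log axis, with 1 point per input library, a bar at the mean of 3 libraries and a star for genes with a listed m6A peak. RPS18 and RPS12 stand at the top between 1780 and 2320 FPKM, RPS29 and RPS27L stand apart at the bottom, and genes without a star lie mostly in the upper part.

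Reads from processed pseudogenes, near-identical copies, are a limit on these levels. The expression table listed 211 pseudogenes named after these genes, with a summed level of 2278 ± 93.1 FPKM (SD, n = 3), of which 49 reached 1 FPKM. For 10 of the 32 genes the pseudogenes came to 10% or more of the parent. RPS28P7 alone measured 904, 969 and 941 FPKM, far above RPS28 itself. Those of RPS7 summed to 146% and those of RPSA, the laminin receptor precursor at 613 FPKM, to 70.7% of their parent. The levels of RPS28, RPS7 and RPSA are therefore uncertain.

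Grouped by place in the particle, levels were similar. The 14 head genes had a median of 419 FPKM and the 18 body genes, RPS27L among them, a median of 441 FPKM. The 11 genes linked to Diamond-Blackfan anaemia had a median of 345 FPKM, against 528 FPKM for the other 21. Their ranges overlapped, from 46.3 to 975 FPKM and from 4.16 to 2204 FPKM, and no test was made of these groupings.

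An m6A peak was listed for 19 of the 32 genes (59.4%, exact Clopper-Pearson 95% interval 40.6 to 76.3). Over all genes of 1 FPKM or more the share was 79.7%, which lies above that interval. High level goes with this difference: 58.9% (interval 49.9 to 67.5) of the 129 other genes of 100 FPKM or more, ribosomal protein genes but not their pseudogenes left aside, had a listed peak, as did 64.0% (interval 49.2 to 77.1) of the large subunit genes. The share for the small subunit was near that of other abundant genes. Intervals cover counting error only.

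The genes without a listed peak included several of the most abundant: 6 of the 10 of highest level had none. Among them were RPS12, RPS3A, RPS4X, whose gene is on the X chromosome, RPS2 and RPSA. Lower in level were RPS21 and RPS7 in the body, RPS23, which reaches the decoding centre, and the head proteins RPS19 and RPS28. The median level was 529 FPKM for the 13 genes without a listed peak and 382 FPKM for the 19 with a peak. A listed peak that lay within RPS19, on chromosome 19 at 41869174 to 41871434, was assigned by the table to MIR6797, at a fold enrichment of 1.34.

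The peaks that were listed were mostly weak in enrichment. Each peak carries a fold enrichment from the authors, the linear ratio of IP to input, to which no error is attached. The 26 peaks of small subunit genes had a median of 2.41 (quartiles 1.81 and 3.55), against 4.53 (2.63 and 7.45) for all listed peaks, and 21 of the 26 lay below the median of all. The 146 peaks of the other genes of 100 FPKM or more had a median of 2.35 and the 69 of large subunit genes 2.22, near that of the small subunit.

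Enrichment was highest in 3 genes. RPS24, a body protein whose messenger is spliced in several ways, had a peak of 8.81 on chromosome 10 at 78036493 to 78037426, in 2 exon blocks of 270 bases in all. In RPS29 the 5' UTR reached 7.23, in 2 blocks of 360 bases on chromosome 14 (49586410 to 49598690). The 5' UTR of RPS10 reached 6.75 on chromosome 6 (34425772 to 34426071). A second RPS10 peak of 6.61 covered nearly the same stretch, so they are not separate sites, and both also overlap RPS10-NUDT3. RPS27A, which is made as a fusion with ubiquitin, followed with 4.89 in its 3' UTR, next to another peak of 1.67.

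Among the weakest peaks were 1.23 in the 3' UTR of RPS29, 1.45 in an exon of RPS16, whose tail reaches towards the tRNA, 1.67 in RPS27A and 1.73 in an exon of RPS18, the most abundant gene of the set. The authors' FDR was 0.05 or more for 2 listed peaks, the weak one of RPS29 and that of RPS9, a body protein near the mRNA entry (fold enrichment 4.19). Extreme p was common, also at small enrichments: the log10 p was -100 or lower for 10 of the 26 peaks, against 14.0% of all listed peaks. Among the 69 peaks of large subunit genes the share was 43.5%. The RPS24 peak on chromosome 10 at 78035533 to 78035893 had a fold enrichment of 2.41 and a log10 p of -11200, the rank 4 value of the whole list.

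By region, the 3' UTR held 15 peaks (57.7%, against 42.5% of all listed peaks), the 5' UTR held 7 (26.9%, against 23.1%) and other exons held 4 (15.4%, against 34.3%). For peaks of large subunit genes the shares were 68.1%, 23.2% and 8.70% in the same order. The median fold enrichment was 2.08 in 3' UTRs and 3.01 in 5' UTRs, against 4.40 and 4.42 for all listed peaks. The 5' UTR peaks belonged to RPS10, RPS29, RPS13, RPS25, a head protein used by some viral entry sites, and RPS27L. The peaks of RPS13 (3.01) and RPS25 (2.79) and the second of RPS10 began at the gene's first base in the expression table. These were 3 of the 26 peaks, against 11.4% of the 41574 listed peaks whose gene is in that table. The RPS25 peak, on chromosome 11 at 119018425 to 119018691 (minus strand), lies upstream of the RefSeq start of that gene (119018324 to 119018353), if both share a build. Of the 26 peaks, 5 ended at the annotated 3' end of their gene, against 9.26% of the same 41574 listed peaks. Among the 5 were those of RPS3, RPS15, RPS27 and RPS27A.

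**Figure D2:**
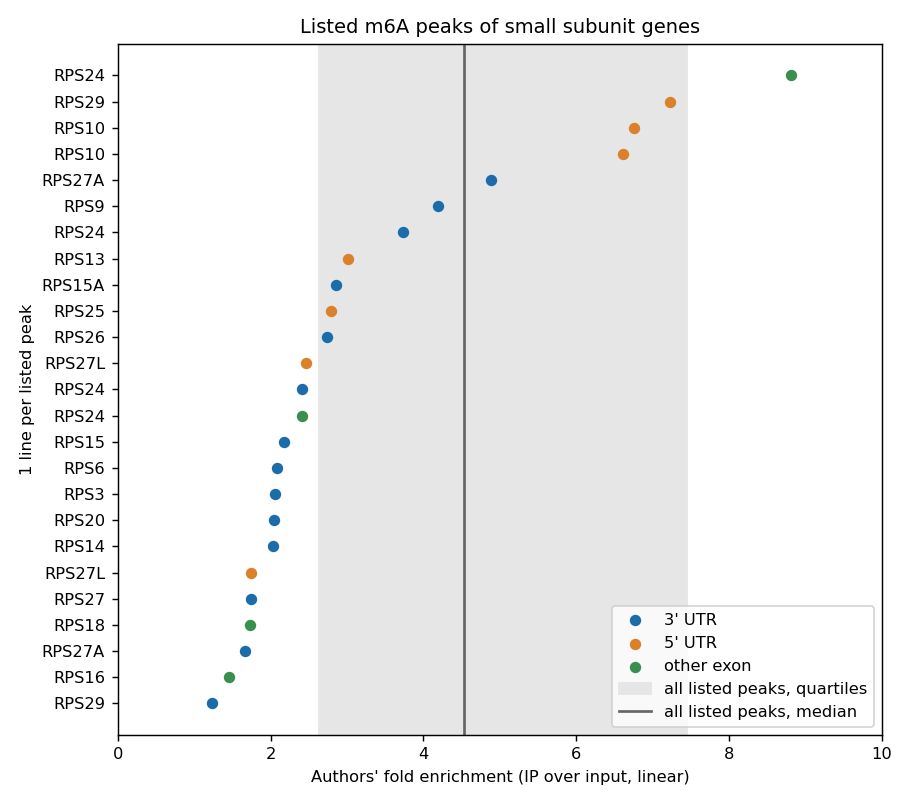
Authors' fold enrichment of each listed m6A peak in the small subunit genes reported by name, 1 line per peak and coloured by region, over the quartiles (grey band) and the median (line) of all 42634 listed peaks. Most points lie to the left of the median of 4.53, and only a peak of RPS24, at 8.81, passes the upper quartile of 7.45.

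Peaks were compared between the combined treatment and CoCl2 alone for 13 of the 32 genes, and enrichment of small subunit messengers was more often higher than lower in the combined treatment. Higher and lower follow the order of names in the table's title, which the labels do not spell out. By the peak of lowest p of each gene in the authors' deposited table, 9 of 13 genes were higher at an authors' FDR under 0.05, 0 were lower and 4 did not pass. Over all 11315 genes with a compared peak, 22.6% were higher and 52.7% lower. At an unadjusted authors' p under 0.05 the counts were 11 higher and 0 lower, with RPS27A and RPS14 added. The shares over all genes at that looser limit are not given here, so these counts have no baseline beside them. The sources used here do not name the tool behind the comparison or how it combined the replicates, so passing the FDR does not show that a difference repeated across replicates. Only compared peaks can be counted, and the 19 genes without one say nothing of direction.

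The median log2 fold change of m6A enrichment in the authors' deposited table was 0.62 over the 13 genes and -0.50 over all genes with a compared peak. Counted as peaks, 9 of 16 were higher and 3 lower, 12 in all, against 23.1%, 45.8% and 68.9% of all compared peaks. The higher changes were modest, from 0.22 to 0.94, and none reached 2-fold. Their median was 0.62, against a median of 0.70 for all higher peaks. The 3 lower peaks were all in RPS24, and the most 3' of them was 3.23-fold lower. High level again went with direction. Of the 60 other genes of 100 FPKM or more with a compared peak, 58.3% were higher and 35.0% lower, and of 23 large subunit genes 15 were higher and 7 lower. The part of level in the result was not tested.

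The body proteins held 6 of the higher genes. RPS6, the substrate of the S6 kinases downstream of mTOR, had a log2 fold change of 0.94 in the authors' deposited table, a 1.93-fold difference, for a 3' UTR peak on chromosome 9 at 19376224 to 19376569. Its log10 FDR of -434 was the lowest value of that table, held by 15 peaks. The RPS6 gene measured 686, 668 and 707 FPKM in input, and its listed peak had a fold enrichment of 2.08.

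RPS27 had 0.84 in the authors' deposited table (log10 FDR -225) for a 3' UTR peak on chromosome 1 at 153991525 to 153992155, with input at 984, 953 and 987 FPKM. RPS15A followed at 0.62 in the authors' deposited table (log10 FDR -234), with input at 150, 144 and 155 FPKM. Both peaks lay in 3' UTRs and were weak after the combined treatment, at 1.74 and 2.85. In the authors' deposited table RPS26, which sits at the mRNA exit, was at 0.22, the smallest higher value, with pseudogenes at 38.1% of its level. The value of RPS24, at 0.34, is taken up below.

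Among the head proteins 3 genes were higher. RPS18 had 0.94 in the authors' deposited table for an exon peak of 60 bases on chromosome 6 at 33272321 to 33272380, with a log10 FDR of -2.39. RPS20 had 0.92 in the authors' deposited table (log10 FDR -77.7) and measured 339, 340 and 356 FPKM in input. RPS19, the gene most often mutated in Diamond-Blackfan anaemia, had 0.48 (log10 FDR -31.4) in the authors' deposited table for a 3' UTR peak of 61 bases, and all of it lay inside the listed peak that the peak list assigns to MIR6797. RPS19 measured 389, 417 and 432 FPKM in input.

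A further 4 genes did not pass, and the sizes of their values lay within or above those of the genes that did. In the authors' deposited table RPS29 was at 0.96 (log10 FDR -0.913), RPS27A at 0.93 (-0.994) and RPS14, a platform protein, at 0.48 (-0.961). RPS28 was at -1.0 (-0.544), the only gene of the 13 with a value below 0 at its peak of lowest p. The compared peaks of RPS28 and RPS29 overlapped no listed peak. The other 14 of 16 did, near the 89.8% of all compared peaks. The RPS28 peak, on chromosome 19 at 8321158 to 8321367, also overlaps NDUFA7 and AC010323 on the opposite strand. It ends before the RefSeq start of RPS28 shown above (8321486 to 8321515), if both sets of coordinates share a build. Whether its reads come from the RPS28 messenger was not tested. Within the RPS29 gene, 2 overlapping listed peaks assigned to the pseudogene RPL32P29 had fold enrichments of 6.55 and 8.13. Their compared counterparts were lower in the authors' deposited table, at -0.40 (log10 FDR -12.3) and -0.47 (-11.8).

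**Figure D3:**
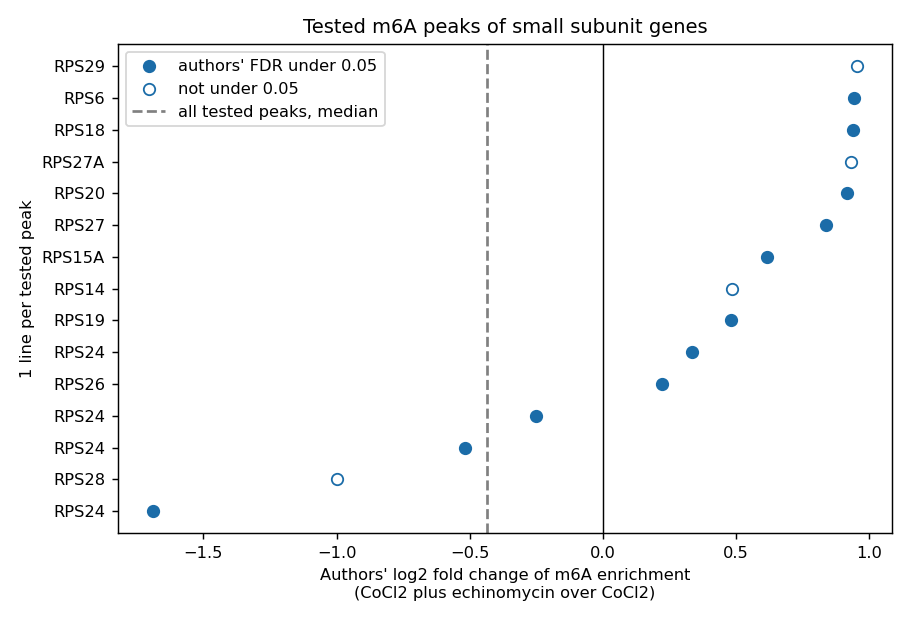
Authors' log2 fold change of m6A enrichment, combined treatment over CoCl2, for each compared peak in the small subunit genes reported by name; filled points have an authors' FDR under 0.05 and the dashed line is the median of all 19983 compared peaks, -0.43. The points of RPS6, RPS18, RPS20 and RPS27 lie between 0.84 and 0.94, and the points below 0 belong to RPS24 and RPS28.

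RPS24 differed from the rest in having 4 listed and 4 compared peaks, which passed in both directions. Its input level was steady, at 498, 506 and 497 FPKM. From the 5' to the 3' end the log2 fold changes of the authors' deposited table were 0.34 for the exon peak at 78035533 to 78035893, -0.25 for the exon peak at 78036493 to 78037426, -0.52 for the 3' UTR peak at 78049109 to 78055583 and -1.69 for the 3' UTR peak at 78056483 to 78056813. The first peak was higher and the next 3 were lower. The exon peaks are assigned to different transcripts, and the 3' UTR peaks to another, so they need not lie on the same messenger.

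The RPS24 peaks also differed in size and weight. Fold enrichment of the listed counterparts was 2.41, 8.81, 3.73 and 2.41 in the same order. The log10 FDR in the authors' deposited table was -434, -65.7, -11.2 and -8.27, so the largest difference, 3.23-fold lower, had the least extreme FDR. The third compared peak covers 1170 exonic bases, and the last ends at 78056813, the annotated end of the gene. Expression of the separate RPS24 transcripts was not measured here, and whether transcript use moved with these values was not tested. With the mean of its peaks RPS24 came to -0.53, and with its peak of highest absolute value to -1.69, which makes it the 1 lower gene.

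**Figure D4:**
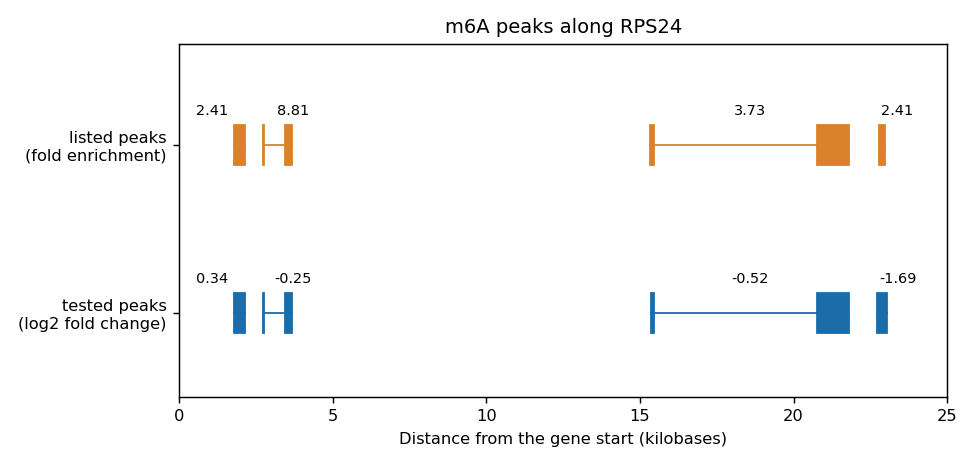
Map of the RPS24 gene in kilobases from its annotated start, with the exon blocks of its 4 listed m6A peaks (upper row, labelled with fold enrichment) and 4 compared peaks (lower row, labelled with the authors' log2 fold change). The most 5' compared peak is at 0.34 and the others are at -0.25, -0.52 and -1.69 towards the 3' end.

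By role, 6 of 7 body genes and 3 of 6 head genes with a compared peak were higher. Of the 11 Diamond-Blackfan genes, 8 had a compared peak and 6 were higher, against 5 and 3 of the other 21. Over all genes with a compared peak, 22.6% were higher and 52.7% lower. RPS24, a body and Diamond-Blackfan gene, counts as higher here by its peak of lowest p, while its other compared peaks were lower. These counts rest on few genes and were not tested. RACK1, the signalling scaffold on the head, and FAU, which encodes RPS30, are 40S proteins that the name rule misses. Both were higher in the authors' deposited table, RACK1 at 0.46 and FAU at 0.74, with input levels of 279 ± 11 and 359 ± 15.4 FPKM (SD, n = 3).

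Partners of the small subunit did not all run the same way. Of 15 initiation factor genes that act on the 40S subunit and had a compared peak, 12 were higher and 3 lower in the authors' deposited table, where 22.6% of all genes were higher and 52.7% lower. In the authors' deposited table EIF2S2, the beta subunit of eIF2, was at 0.74 and EIF3E, a subunit of eIF3, at 0.72. EIF3C, another eIF3 subunit, whose near-identical copy can share reads, was at 2.83 in the authors' deposited table. Of 20 genes for 40S assembly, 10 were higher and 10 lower in the authors' deposited table. Among them IMP3, a component of the early processome, was at -1.0 in the authors' deposited table, NOP14, another processome protein, at 1.20 and PDCD2, a chaperone of RPS2, at -1.59.

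Of 11 genes for RPS6 kinases and TOP regulators, 3 (27.3%) were higher, 6 (54.5%) lower and 2 did not pass in the authors' deposited table. These shares were near the 22.6% and 52.7% of all genes with a compared peak. RPS6KB1, which encodes S6 kinase 1, was at -1.04 (log10 FDR -99.5) for a 3' UTR peak. In the authors' deposited table RPTOR, the mTORC1 scaffold, was at 3.23 for an exon peak, and LARP4B, an RNA-binding protein, at 1.33. LARP1, which binds the TOP tract, was at 1.01 for a 5' UTR peak, named here after its value was seen. Each gene is represented by the peak of lowest p, and only m6A enrichment was compared, not the level of the RNA.

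**Figure D5:**
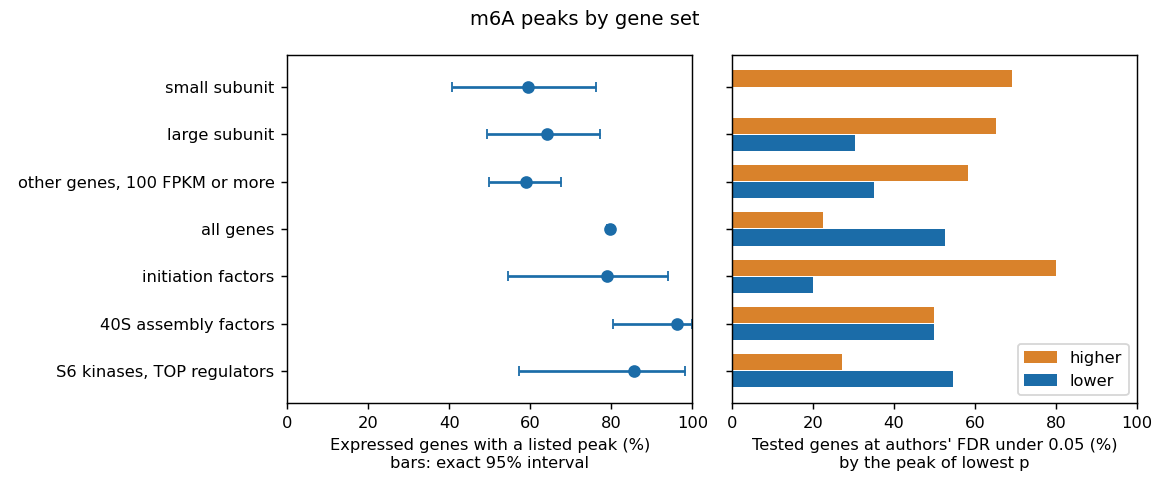
Left, share of genes of 1 FPKM or more with a listed m6A peak (points, with exact 95% intervals); right, share of genes with a compared peak that were higher or lower at an authors' FDR under 0.05. The small subunit, at 59.4%, lies beside other genes of 100 FPKM or more (58.9%) on the left, and it has no bar for lower on the right, where all genes with a compared peak have 52.7%.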

How the data were processed

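Per the labels' protocols, poly(A) RNA of Kasumi-1 cells was fragmented, pulled down with an m6A antibody and sequenced, with strand kept by dUTP. Tools named per the submitters' processing notes are HISAT2, ChIPseeker, fastp and HOMER, with no roles. No peak caller, build or FPKM estimator is given in the sources used here. The authors deposited FPKM per gene and input library, a fold enrichment ratio with log10 p and FDR (read as a score) per listed peak, and a log2 fold change with a p-value and log10 FDR score per compared peak. Each peak has 1 value and no replicate values. The 6 other per-sample FPKM columns were not used here. The table's name sets the combined treatment first, so log2 fold changes were read as that treatment over CoCl2. The labels do not state this. Peaks of the combined treatment overlapped 3 of 49 compared peaks from -8 to -4 and 64 of 68 from 4 to 10, by at least 1 exonic base on the same strand.

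Here, means, SDs, shares and medians were computed, with the authors' FDR under 0.05 as the threshold, no fold limit and 1 FPKM as the expression limit. A gene is represented by its peak of lowest authors' p. All 32 genes passed the expression limit. No test between samples was made: the tables hold no values per IP library, and the input libraries used are of 1 condition. The genes and the lists of partner genes were chosen with earlier results of these data known. Any of these genes could be named, and up to 3 partner genes per list by lowest p. Some genes are counted but not reported by name here. Simulated data with known answers served to test the code. Versions were Python 3.11.15, scipy 1.17.1, pandas 2.3.3, matplotlib 3.10.9 and numpy 2.4.6. Coordinates of peaks are printed as the tables give them, with no build named there.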

Additional observations from a re-analysis of the deposited data

How the results depend on the processing

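With a 2-fold limit added to the authors' FDR, 0 of the 9 higher genes counted as higher. The share of all genes that stay higher under that limit is not given here. The median log2 fold change of all higher peaks, 0.70, was itself below 2-fold. With the peak of highest absolute log2 fold change in place of that of lowest p, RPS24 turned from 0.34 to -1.69 and the count of lower genes from 0 to 1, and with the mean of its peaks RPS24 came to -0.53. The other 25 alternatives of these summary results left each value within its limits: 1.5 times a count, the spread between libraries, the quartiles of a median or the interval of a share. The share of genes with a listed peak ran from 46.9% (peaks of a fold enrichment of 2 or more) to 59.4%. Leaving out each input replicate in turn gave 8.61% to 8.88% of summed FPKM and a median level of 411 to 432 FPKM. Without RPS24, an alternative chosen after seeing the data, 8 genes were higher, 0 lower, and the median log2 fold change was 0.73. No paired analysis was possible because no result here comes from a test between groups of libraries. Depth is unknown from FPKM and sets no limit that can be given.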

Other observations

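Small nucleolar RNA genes lay within 9 of the 32 small subunit genes on the same strand, 19 in all, as the expression table places them. RPS12 held 3 of them. The expression table listed 211 pseudogenes named after small subunit genes, 49 of them at 1 FPKM or more. With no limit on level, 42 such pseudogenes had a listed peak. Their 66 peaks had a median fold enrichment of 5.59, against 4.53 for all listed peaks and 2.41 for the parents. Of 24 compared peaks in such pseudogenes, 5 were higher and 11 lower at an authors' FDR under 0.05, and in the authors' deposited table their log2 fold change had a median of -0.59. Over all compared peaks, 23.1% were higher and 45.8% lower, with a median of -0.43, so the counts of the pseudogenes were near those of all peaks. The median over the 16 peaks of the parents was 0.48. How reads were divided between parents and pseudogenes was not tested.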
